A study of Mus musculus with 12 samples.

Results

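The genes described here are 10 markers and signals of splenic stroma, chosen by symbol: the chemokine genes Cxcl13, Ccl19 and Ccl21a, the transcription factor genes Tlx1 and Nkx2-5, the surface molecules Madcam1 and Pdpn, the cytokine Il33, the growth factor binding protein Igfbp5 and the lymphotoxin gene Ltb. They are 10 of the 53715 genes in the count table and were chosen with earlier results of these data known. RNA came from whole spleens in 12 libraries, 4 in each of 3 groups. All groups, controls included, were of the strain BXSB.Cg-Cd8atm1Mak Il15tm1Imx Yaa, or Yaa DKO, which joins targeted alleles of Cd8a and Il15 to the Yaa locus of the autoimmune-prone BXSB strain, and mice without these alleles were not analysed here. One group was untreated at 6 weeks of age (replicates 1 to 4) and another was untreated at 10 weeks (replicates 5 to 8). The last was 10 weeks old and drank water with 6 g/L of 2-deoxyglucose, or 2DG (replicates 9 to 12), a glucose analogue that cells take up and phosphorylate but cannot carry through glycolysis. The sources used here do not give the age at which 2DG began.

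The white pulp of the spleen is laid out by non-haematopoietic stromal cells. Follicular stroma secretes CXCL13, which draws B cells through CXCR5, while reticular cells of the T zone secrete CCL19 and CCL21, which draw T cells and dendritic cells through CCR7. Lymphocytes feed back through membrane lymphotoxin, of which LTB is a subunit, and its receptor on stroma keeps these chemokines on. TLX1 and NKX2-5 pattern the mesenchyme from which spleen stroma arises, and IL-33 is a nuclear cytokine of stromal cells that acts as an alarm signal on cells bearing its receptor ST2.

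Library totals lay between 15596040 and 26079979 counts. The labels do not say that each library came from its own mouse, so p-values measure only how far samples spread, and that spread may be technical. It was widest in the untreated 10-week group, whose biological coefficient of variation, 0.241, exceeded the 0.127 of the 6-week group and the 0.114 of the 2DG group. Untreated 10-week replicate 8 stood apart. Its expression correlated more closely with 6-week libraries (median r = 0.994 over pairs) than with those of its own group (0.985), and for the 10 genes each call that changes without it is given both ways. Untreated 10-week replicate 6 had the lowest median r with its own group of all 12 libraries, 0.980, and 0.979 with 6-week libraries. Tlx1, a defining gene of spleen mesenchyme, was counted in every library, and the labelled tissue therefore carried its marker. A list of 8 pancreas genes, the organ next to the spleen, summed to between 0.217 and 55.2 CPM (counts scaled by library size), highest in 2DG replicate 10, with Ins2 at 0 in every library. In whole tissue, fewer cells of a type and less RNA per cell cannot be told apart.

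Promoters are printed for the 4 genes that passed a test between groups and for Madcam1 and Ltb, which carry the same motif. They are RefSeq sequences of build GRCm38.p6 on the gene's own strand, 5′ to 3′, from 250 bases before the annotated start up to the start or to the first annotated exon base before it. All 10 genes matched the promoter table. Capitals mark matches, on either strand, to the motifs searched: the TATA box TATAAA, the NF-kB site, the gamma-activated site TTCNNNGAA, the interferon response element and the NKX2 site TNAAGTG.
Il33, upstream start, chr19:29924863-29925112, plus strand: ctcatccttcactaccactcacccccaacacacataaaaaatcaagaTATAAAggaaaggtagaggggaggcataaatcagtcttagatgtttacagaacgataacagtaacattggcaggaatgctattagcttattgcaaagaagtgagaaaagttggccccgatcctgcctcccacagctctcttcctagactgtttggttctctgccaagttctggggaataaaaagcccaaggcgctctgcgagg
Il33, downstream start, chr19:29945540-29945789, plus strand: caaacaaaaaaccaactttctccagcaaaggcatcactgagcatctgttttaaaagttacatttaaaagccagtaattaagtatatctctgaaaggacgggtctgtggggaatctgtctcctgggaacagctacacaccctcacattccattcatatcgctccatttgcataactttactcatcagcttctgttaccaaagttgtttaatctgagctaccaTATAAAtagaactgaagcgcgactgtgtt
Tlx1, chr19:45150465-45150679, plus strand: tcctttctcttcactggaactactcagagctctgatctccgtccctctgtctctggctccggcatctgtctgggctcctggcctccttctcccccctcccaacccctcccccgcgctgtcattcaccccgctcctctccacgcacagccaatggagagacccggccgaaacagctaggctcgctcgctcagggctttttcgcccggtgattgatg
Nkx2-5, chr17:26841609-26841815, minus strand: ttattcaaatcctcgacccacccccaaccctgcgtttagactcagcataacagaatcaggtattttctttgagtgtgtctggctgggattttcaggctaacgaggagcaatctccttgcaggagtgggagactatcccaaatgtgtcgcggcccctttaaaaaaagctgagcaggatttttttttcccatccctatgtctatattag
Igfbp5, chr1:72874885-72875115, minus strand: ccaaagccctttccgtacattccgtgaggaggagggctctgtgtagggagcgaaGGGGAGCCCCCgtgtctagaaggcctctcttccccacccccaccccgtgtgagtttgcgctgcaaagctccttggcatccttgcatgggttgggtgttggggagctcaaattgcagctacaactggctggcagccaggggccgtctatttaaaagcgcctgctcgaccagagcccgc
Madcam1, chr10:79664309-79664558, plus strand: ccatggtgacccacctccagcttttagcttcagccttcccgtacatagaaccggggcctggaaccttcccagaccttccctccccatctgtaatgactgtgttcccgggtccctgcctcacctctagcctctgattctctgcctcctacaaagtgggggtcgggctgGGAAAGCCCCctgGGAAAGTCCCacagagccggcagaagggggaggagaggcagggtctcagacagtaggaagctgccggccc
Ltb, chr17:35194257-35194438, plus strand: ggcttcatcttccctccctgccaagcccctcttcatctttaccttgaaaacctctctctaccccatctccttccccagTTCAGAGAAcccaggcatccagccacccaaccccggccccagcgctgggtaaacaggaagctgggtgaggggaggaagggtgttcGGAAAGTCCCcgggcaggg

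Il33 has separate annotated starts, each with a TATA box match, at position -203 in the upstream window and at -29 in the downstream one, and the gene-level counts do not separate their transcripts. TATAAA lay in 12.4% of all 32841 promoter windows in the table. Madcam1 held matches to the NF-kB site at -83 and -70, and Ltb held 1 at -87 as well as a gamma-activated site at -172. The match at -70 in Madcam1 and that at -87 in Ltb had the same letters, GGAAAGTCCC. In Igfbp5 the capitals at -196 cover overlapping NF-kB matches on both strands. An NF-kB match was found in 7.25% of all windows, a gamma-activated site in 7.02%, an interferon response element in 2.98% and an NKX2 site in 10.1%. The printed windows of Tlx1 and Nkx2-5 held none of these letters. The Nkx2-5 window lies before its RefSeq start but within the annotated span of the gene, chr17:26838664-26845009. Sequence before the far end of that span was not searched.

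**Figure D1:**
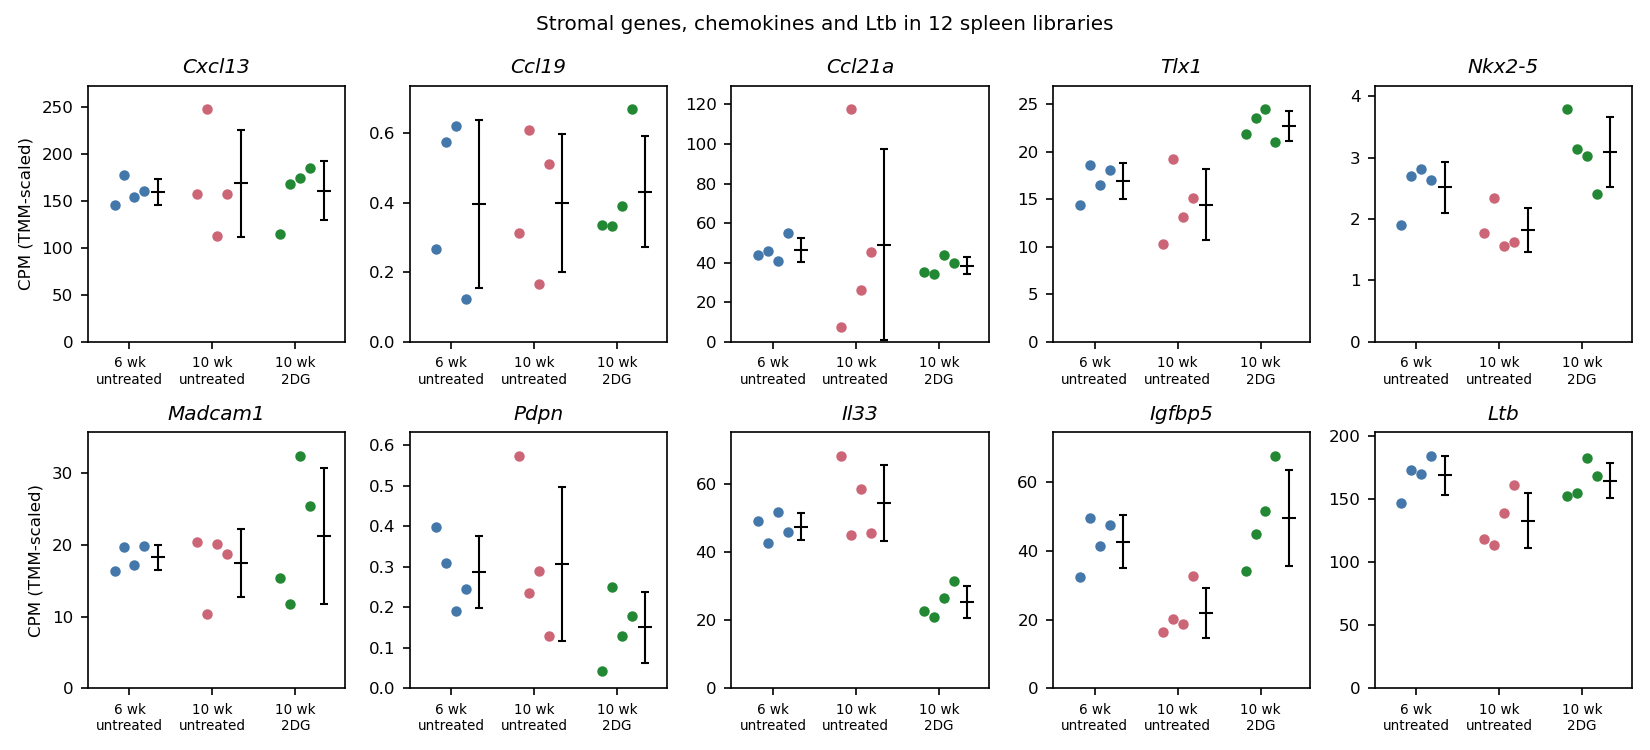
Level of each gene in every library, in CPM (vertical axes from 0), by group; points are libraries in replicate order from left to right, and the bar beside them is the mean with SD (n = 4). Il33 lies lower with 2DG than in any other library, Igfbp5 and Nkx2-5 have their lowest mean in the untreated 10-week group, and Ccl21a spreads from 7.57 to 118 CPM among the untreated 10-week libraries.

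Of the 10 genes, 9 had enough counts to test. Pdpn, at 1 to 11 counts per library, did not. With age, from 6 to 10 weeks in untreated spleens, 0 of the 9 passed an edgeR adjusted p of 0.05. Their median log2 change was -0.07, and 3 of the 9 had an unadjusted edgeR p under 0.05. Over all 18542 genes tested, 0.00539% passed, 3179 had an unadjusted p under 0.05, and the median was 0.01. In that comparison DESeq2 called 1 of the genes, Igfbp5. With 2DG at 10 weeks, 4 of the 9 passed, Tlx1, Nkx2-5 and Igfbp5 upward and Il33 downward, against 7.42% of all genes tested. The median change of the 9 was 0.28. That 7.42% is also the share to set beside the edgeR counts of listed genes for this comparison below. Between the 2DG group and the untreated 6-week group 1 of the 9 passed, Il33 downward, with a median of 0.08, against 0.129% of all genes tested. Groups that did not overlap were found for 0, 4 and 2 of the 9 genes in these comparisons, and for 6.97%, 12.4% and 15.7% of all genes. The comparisons share groups, so their values for a gene are not independent of each other. Because the 10 genes were chosen with earlier results known, the shares set beside them are a description and no test of the set.

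**Figure D2:**
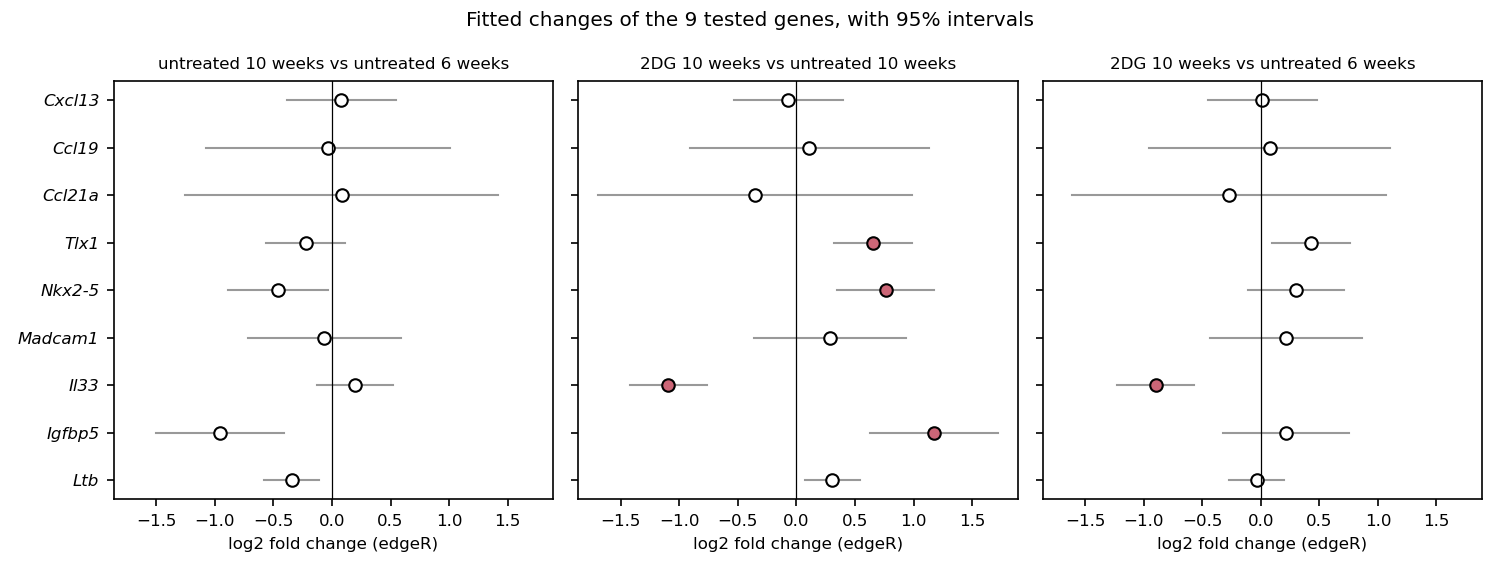
Fitted log2 fold changes (horizontal axes, edgeR) of the 9 tested genes in the 3 comparisons; lines are 95% intervals, and filled points have an adjusted p under 0.05. Tlx1, Nkx2-5, Il33 and Igfbp5 are filled for 2DG at 10 weeks and Il33 for 2DG against 6 weeks.

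Levels can be compared between genes only per length, as CPM per kilobase of annotated exon. On that scale Cxcl13 led at 6 weeks with 139 ± 11.8 (SD, n = 4), followed by Ltb with 111 ± 10.3 and Ccl21a with 53.4 ± 7.10. Il33 at 16.5 ± 1.38 and Madcam1 at 12.7 ± 1.21 came next, then Tlx1 at 7.89 ± 0.883 and Igfbp5 at 7.11 ± 1.29. Nkx2-5, at 1.46 ± 0.241, stood under Tlx1, and Ccl19 at 0.457 ± 0.278 and Pdpn at 0.158 ± 0.0491 were lowest. Among neighbours in this order, only Tlx1 with Igfbp5 and Ccl19 with Pdpn had overlapping ranges at 6 weeks. With 2DG, Madcam1 at 14.8 ± 6.58, Tlx1 at 10.6 ± 0.731, Il33 at 8.84 ± 1.65 and Igfbp5 at 8.26 ± 2.35 each overlapped the next.

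Cxcl13 (ENSMUSG00000023078.6, chr5:95956951-95961068), the chemokine of B cell follicles, kept a similar mean in the 3 groups. It stood at 146, 178, 154 and 161 CPM in the 6-week libraries, at 157, 248, 112 and 158 CPM in the untreated 10-week group and at 115, 168, 175 and 186 CPM with 2DG. Untreated replicate 6 was the highest of all 12 and untreated replicate 7 the lowest, and the groups overlapped. The log2 change was 0.08 with age (95% interval -0.39 to 0.55, edgeR adjusted p = 0.885), -0.07 with 2DG at 10 weeks (-0.53 to 0.40, edgeR adjusted p = 0.886) and 0.01 for 2DG against 6 weeks (-0.45 to 0.48, edgeR adjusted p = 0.987). Its receptor gene Cxcr5, borne mainly by B cells, averaged 206 ± 9.24, 183 ± 36.6 and 230 ± 11.4 CPM in the same order of groups and did not pass in any comparison.

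Ccl21a (ENSMUSG00000094686.1, chr4:42772860-42773993), a T zone chemokine, had the widest spread of the tested genes in untreated 10-week spleens. It measured 43.7, 45.9, 41.0 and 55.2 CPM at 6 weeks and 35.5, 34.5, 44.1 and 39.7 CPM with 2DG. Between these tight groups, the untreated 10-week libraries read 7.57, 118, 25.99 and 45.4 CPM, so that replicate 6 had 15.5 times the level of replicate 5. The coefficient of variation was 98.0% there, against 13.3% at 6 weeks and 11.5% with 2DG. Neither comparison of untreated 10-week spleens passed, with log2 changes of 0.08 with age (edgeR adjusted p = 0.961) and -0.35 for 2DG (edgeR adjusted p = 0.775). Replicate 6 decided both signs: without it the changes were -0.81 and 0.54, neither past the threshold. Against 6 weeks the 2DG group changed by -0.27 (95% interval -1.61 to 1.07).

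Ccl19 (ENSMUSG00000071005.7, chr4:42754525-42756577), the other CCR7 ligand, had only 2 to 15 counts per library. The 6-week libraries gave 0.266, 0.575, 0.622 and 0.123 CPM, the untreated 10-week libraries 0.313, 0.610, 0.165 and 0.512 CPM, and the 2DG libraries 0.337, 0.335, 0.390 and 0.669 CPM. A nearby pseudogene copy, Ccl19-ps1, had 5 to 16 counts, and the sources used here do not say how reads shared by the copies were divided, so the level of Ccl19 is uncertain. The groups overlapped, and intervals of about 1 log2 unit to either side (-1.08 to 1.01 with age, -0.91 to 1.13 for 2DG at 10 weeks) mean that changes within that span were not detectable at this depth. The similar genes Ccl21b, Gm13304, Gm21541 and Gm10591 held 0 counts. How any reads that they share with Ccl21a were handled is not stated, so the level of Ccl21a is uncertain too. Ccr7, the receptor gene for CCL19 and CCL21, averaged 100.5, 73.4 and 92.7 CPM in the 3 groups without passing.

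Tlx1 (ENSMUSG00000025215.10, chr19:45150680-45156943), without which no spleen forms, rose with 2DG. Its levels were 14.4, 18.6, 16.5 and 18.1 CPM at 6 weeks, 10.3, 19.2, 13.1 and 15.1 CPM in the untreated 10-week group and 21.9, 23.6, 24.5 and 21.02 CPM with 2DG. All 4 libraries of the 2DG group lay above all 8 untreated libraries. Against untreated 10-week spleens the fitted level was 1.57-fold higher, a log2 change of 0.65 ± 0.15 (SE; edgeR adjusted p = 0.0240). Against 6 weeks the change was 0.43 ± 0.15 (SE) and did not pass (edgeR adjusted p = 0.178), although voom with sample weights gave 0.0223. With age it changed by -0.22 (edgeR adjusted p = 0.493). The call at 10 weeks was lost without 2DG replicate 10 (edgeR adjusted p = 0.0760), without 2DG replicate 11 (0.0786) and in a fit of only the compared groups (0.0728). The antisense gene Tlx1os had 2 to 12 counts and shares no exon bases with Tlx1.

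Nkx2-5 (ENSMUSG00000015579.4, chr17:26838664-26845009), a homeobox gene of heart and spleen mesenchyme, also rose with 2DG, at a level 1.69-fold that of untreated spleens of the same age. It read 1.90, 2.70, 2.82 and 2.64 CPM at 6 weeks, 1.77, 2.35, 1.57 and 1.62 CPM in the untreated 10-week group and 3.79, 3.14, 3.03 and 2.41 CPM with 2DG. The 10-week groups did not overlap, but by a small margin, with the lowest 2DG library at 2.41 and the highest untreated library at 2.35 CPM, and counts were few, between 34 and 90 per library. The log2 change was 0.76 ± 0.19 (SE; edgeR adjusted p = 0.0325). That call depended on single libraries: it was lost without any of untreated replicates 5, 7 and 8 or 2DG replicates 9, 10 and 11, with edgeR adjusted p of 0.0793, 0.0651, 0.0522, 0.0863, 0.0899 and 0.0800, and in a fit of only the compared groups (0.0761). Its changes of -0.46 with age (edgeR adjusted p = 0.255) and 0.30 against 6 weeks (edgeR adjusted p = 0.462) did not pass.

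Among 7 tested genes of 8 other factors that pattern spleen mesenchyme, 1 rose with 2DG at 10 weeks and all 7 fitted changes were above 0, with a median of 0.30 against 0.01 over all genes. The gene that passed was Nkx3-2, a homeobox gene expressed in early spleen mesenchyme, from 1.42 ± 0.141 to 2.38 ± 0.272 CPM, a log2 change of 0.74 (edgeR adjusted p = 0.0389). With 1 library left out at a time, Nkx3-2 missed the threshold in 8 of 12 fits, with adjusted p of at most 0.109, and passed in those without 6-week replicate 1, 6-week replicate 3, untreated replicate 6 or 2DG replicate 12. Without untreated replicate 8 the change was 0.72 (edgeR adjusted p = 0.0532). The call was also lost without a filter on low counts (0.0668) and with voom (voom adjusted p = 0.0676), which called 0 of the 7. Nkx2-3, whose loss disturbs MAdCAM-1 and the spleen's marginal sinus, averaged 8.94 ± 1.499, 8.97 ± 1.64 and 10.0 ± 0.860 CPM in the 3 groups. With age and against 6 weeks 0 of the 7 passed in edgeR, 0 in DESeq2 and 0 in voom, and 0 had an unadjusted edgeR p under 0.05.

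Madcam1 (ENSMUSG00000020310.9, chr10:79664559-79668537) encodes the adhesion molecule of marginal sinus lining cells that binds the α4β7 integrin. It stood at 16.4, 19.7, 17.2 and 19.9 CPM at 6 weeks, at 20.5, 10.4, 20.2 and 18.8 CPM in the untreated 10-week group and at 15.4, 11.8, 32.5 and 25.4 CPM with 2DG. The 2DG libraries spanned the widest range, with replicates 11 and 12 above every untreated library and replicate 10 under all but 1 of them. No comparison passed, with log2 changes of -0.07, 0.28 and 0.22 with age, with 2DG at 10 weeks and against 6 weeks (edgeR adjusted p = 0.934, 0.611 and 0.780). Podoplanin, encoded by Pdpn (ENSMUSG00000028583.14, chr4:143267431-143299564), is the usual surface marker of fibroblastic reticular cells, yet its gene was near the limit of detection. It averaged 0.286 ± 0.0892 CPM at 6 weeks, 0.306 ± 0.191 CPM in the untreated 10-week group and 0.150 ± 0.0877 CPM with 2DG, with overlapping ranges. Of 7 genes for ligands and partners of these surface molecules, 1 passed with 2DG at 10 weeks: Cd44, an adhesion receptor that podoplanin binds, fell from 454 ± 37.8 to 344 ± 20.6 CPM, a log2 change of -0.40 (edgeR adjusted p = 0.0209).

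Il33 (ENSMUSG00000024810.16, chr19:29925114-29960718) was the 1 gene of the 10 that fell with 2DG, and the only one past the threshold in more than 1 comparison. The 6-week libraries held 49.3, 42.8, 52.0 and 46.0 CPM, the untreated 10-week libraries 68.5, 45.2, 58.5 and 45.7 CPM, and the 2DG libraries 22.8, 20.9, 26.7 and 31.6 CPM. Every 2DG library lay below every untreated library of either age. At 10 weeks the level with 2DG was 0.468 times the untreated one, a log2 change of -1.09 ± 0.15 (SE; edgeR adjusted p = 0.00211). This call held without each of the 12 libraries in turn, with changes from -1.21 to -0.97 and adjusted p of at most 0.0115, and under the 7 other settings tried, with adjusted p of at most 0.0134. Without untreated replicate 8 the change was -1.18.

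Against the 6-week group Il33 was also lower with 2DG, by a log2 change of -0.90 ± 0.15 (SE; edgeR adjusted p = 0.0487), close to the threshold. Leaving out any 6-week library, or 2DG replicate 9, 10 or 11, took it past 0.05, to edgeR adjusted p from 0.0938 to 0.184 over those 7 fits. The change itself stayed between -1.02 and -0.81 when each library was left out. Median-of-ratios scaling (edgeR adjusted p = 0.0517) and a filter of 1 CPM (0.0552) also lost the call. With age Il33 changed by 0.20 ± 0.15 (SE; edgeR adjusted p = 0.537), with untreated replicates 5 and 7 above and replicates 6 and 8 within the 6-week range.

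The IL-33 receptor gene Il1rl1, which encodes ST2 on mast cells, type 2 lymphoid cells and some T cells, did not pass in any comparison. It averaged 13.5 ± 4.01 CPM at 6 weeks, 17.0 ± 4.92 CPM in the untreated 10-week group and 27.8 ± 9.05 CPM with 2DG (edgeR adjusted p = 0.158 at 10 weeks and 0.117 against 6 weeks). Of 10 tested genes of 13 for the receptor, its signalling and type 2 targets, 1 fell with 2DG at 10 weeks, Myd88, the adaptor of the IL-1 receptor family, from 57.4 ± 10.3 to 42.3 ± 0.993 CPM (log2 change -0.44, edgeR adjusted p = 0.0231). Their median change was -0.10.

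Markers of plasma cells moved in the same direction as Il33. Of 8 such genes 7 fell with 2DG at 10 weeks, and their summed level was 2139 to 4011 CPM at 6 weeks, 3669 to 6649 CPM in the untreated 10-week group and 1628 to 2536 CPM with 2DG. Their sum was highest in untreated replicates 5 and 7, as Il33 was. Erythroid markers, 0 of 9 past the threshold, summed to 1994 to 2938, 1219 to 5093 and 3414 to 7456 CPM in the same order. The part of either cell type in the change of Il33 was not tested.

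The tested genes whose levels most resembled that of Il33 over the 12 libraries were Slamf7, a surface receptor of plasma cells and natural killer cells (Pearson r = 0.96 over log2 values), Inpp1, an inositol phosphatase (0.95), and Mme, the membrane peptidase neprilysin (0.95). They were sought among 11349 genes. With group means removed the values were 0.81, 0.74 and 0.74, and without the 2 libraries farthest from the median of each gene 0.94, 0.89 and 0.93. Slamf7 fell with 2DG at 10 weeks by 0.71 on the log2 scale (edgeR adjusted p = 0.00384), Inpp1 by 0.56 (edgeR adjusted p = 0.00281) and Mme by 0.62 (edgeR adjusted p = 0.00732). The correlations are a description, since the libraries share their groups.

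Tlx1 in turn was most like Kazald1 (Pearson r = 0.98), Cyp27a1, a mitochondrial sterol hydroxylase (0.98), and Irak2, a kinase of IL-1 and Toll-like receptor signalling (0.96), over the same libraries and genes. Removing group means gave 0.96, 0.98 and 0.90, and leaving out the 2 libraries farthest from each gene's median gave 0.97, 0.95 and 0.91. Kazald1 encodes a secreted protein with a Kazal-type domain and lies beside Tlx1 at chr19:45075241-45079289, 71390 bases upstream on the same strand, with no annotated gene between them. It stood at 21.7, 31.3, 24.8 and 25.0 CPM at 6 weeks, 13.3, 31.8, 20.2 and 21.1 CPM in the untreated 10-week group and 37.4, 37.5, 40.2 and 34.1 CPM with 2DG. Kazald1 rose with 2DG at 10 weeks by a log2 change of 0.79 (edgeR adjusted p = 0.0390), a call lost in 9 of the 12 fits that each left out 1 library, with adjusted p of at most 0.105. It held in the fits without 6-week replicate 1, 6-week replicate 2 or untreated replicate 6, and without untreated replicate 8 the change was 0.77 (edgeR adjusted p = 0.0580).

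**Figure D3:**
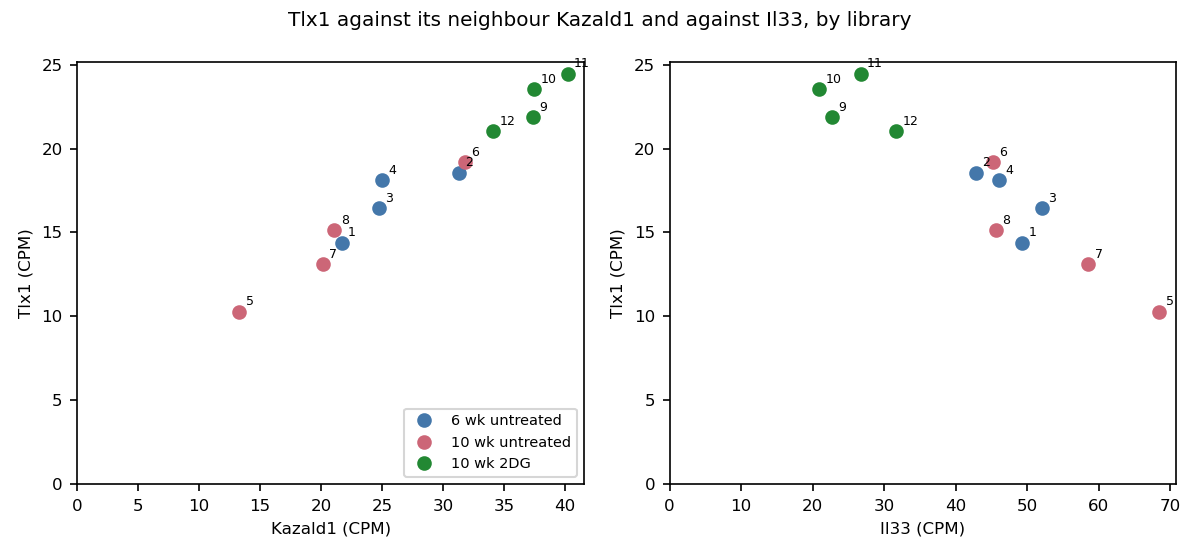
Tlx1 (vertical axes, CPM) against Kazald1 (left) and Il33 (right) in the 12 libraries, coloured by group and labelled with their replicate numbers. Untreated replicate 5 has the lowest Tlx1 and Kazald1 and the highest Il33, and the 2DG libraries have the highest Tlx1 and the lowest Il33.

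Within the untreated 10-week group Tlx1 and Il33 ran in opposite order at the ends: replicate 5 had the least Tlx1 and the most Il33, and replicate 6 the most Tlx1 and the least Il33. Their correlation with group means removed was -0.74 over the 12 libraries. Some other stromal genes, chosen after their values were seen, shared the low replicate 5 and high replicate 6 of Ccl21a and Tlx1. Cxcl12, a chemokine of perivascular stroma, read 112 and 685 CPM in these libraries, Il7, a survival factor for lymphocytes, 5.79 and 19.7 CPM, and the mesenchymal factors Tcf21 14.4 and 44.8 CPM and Wt1 6.21 and 20.6 CPM. The 6-week libraries were closer together for Cxcl12 and Il7: Cxcl12 ran from 337 to 392 CPM and Il7 from 8.53 to 11.7 CPM. Madcam1 went the other way, at 20.5 CPM in replicate 5 and 10.4 CPM in replicate 6. Nor did Des, at 48.9 and 45.8 CPM, or Col5a1, at 28.7 and 27.7 CPM, rise from replicate 5 to replicate 6. Fibroblastic reticular and perivascular genes summed to 1523, 1736, 1524 and 1380 CPM in replicates 5 to 8, lowest in replicate 8. Sums of endothelial and of follicular dendritic cell genes were lowest in replicate 5 and highest in replicate 6. Genes within the latter list differed: Cr2 and Coch were highest in replicate 8, at 957 and 823 CPM, against 377 and 702 CPM in replicate 6. What other cell types add to these sums was not tested. B cell markers summed to 4402 CPM in replicate 5 and 2859 CPM in replicate 6, and T cell markers to 675 and 984 CPM. What these lymphocyte sums contribute to the spread was not tested.

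**Figure D4:**
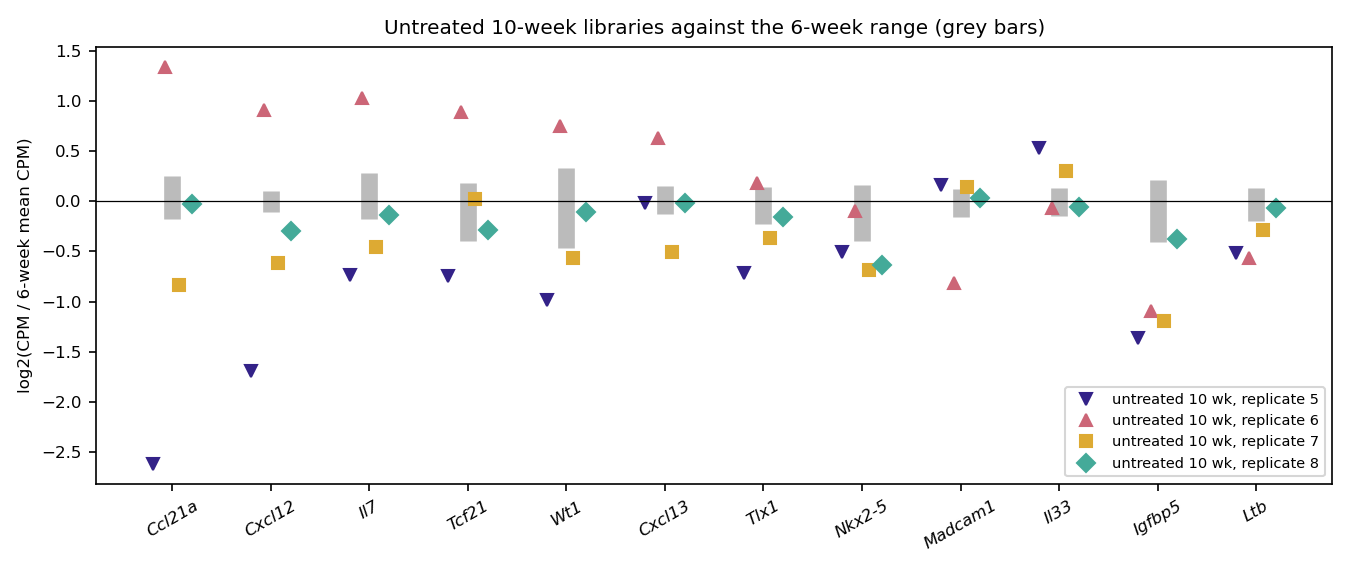
Level in each untreated 10-week library as log2 of the ratio to the 6-week mean (vertical axis), for 8 of the 10 genes and 4 other stromal genes; grey bars are the range of the 6-week libraries. Replicate 5 lies lowest and replicate 6 highest for Ccl21a, Cxcl12, Il7, Tcf21, Wt1 and Tlx1, while for Igfbp5 replicates 5, 6 and 7 all lie below the 6-week range.

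The genes most like Cxcl13 were Slc35c2, a Golgi membrane protein of the nucleotide sugar transporter family (Pearson r = 0.96), Slc50a1, a sugar transporter (0.91), and Man2c1, a mannosidase of the cytosol (0.91). They gave 0.89, 0.80 and 0.76 without the 2 libraries farthest from each gene's median, and 0.98, 0.93 and 0.92 with group means removed. None of the 3 passed in a comparison, like Cxcl13 itself, and their fitted changes were at most 0.08 log2 units in size.

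Igfbp5 (ENSMUSG00000026185.8, chr1:72857932-72874884), a secreted protein that binds insulin-like growth factors, showed the largest rise of the 10 genes with 2DG. Its 6-week libraries stood at 32.3, 49.6, 41.5 and 47.5 CPM, the untreated 10-week libraries at 16.5, 20.1, 18.6 and 32.8 CPM, and the 2DG libraries at 34.1, 44.8, 51.8 and 67.7 CPM. Untreated replicates 5 to 7 were below all other libraries, and replicate 8, the library that stood apart, was inside the 6-week range. With 2DG the fitted level was 2.25-fold that of untreated spleens at 10 weeks, a log2 change of 1.17 ± 0.25 (SE; edgeR adjusted p = 0.0183). Without untreated replicate 8 it was 1.42 (edgeR adjusted p = 0.00252). The call was lost without untreated replicate 5 (0.0592), without 2DG replicate 11 (0.0569), without a filter on low counts (0.0554) and in a fit of only the compared groups (0.0540).

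With age Igfbp5 changed by -0.95 ± 0.25 (SE), which did not pass (edgeR adjusted p = 0.118). Without replicate 8 it fell by 1.21 on the log2 scale and passed (edgeR adjusted p = 0.0112), and DESeq2 called it with all libraries (DESeq2 adjusted p = 0.00622). The 2DG and 6-week groups overlapped, with a change of 0.22 (edgeR adjusted p = 0.719).

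In the insulin-like growth factor axis, 12 of 13 listed genes were tested, and with 2DG at 10 weeks 2 rose and 1 fell. Igfbp6, another binding protein, rose from 2.23 ± 0.775 to 5.08 ± 1.73 CPM (log2 change 1.196, edgeR adjusted p = 0.0232). Stc2, a secreted inhibitor of the protease that cleaves binding proteins, rose from 14.7 ± 2.84 to 21.9 ± 1.97 CPM (0.57, edgeR adjusted p = 0.0184). Igf2r, the receptor that takes up IGF2 for degradation, fell from 119 ± 4.22 to 87.4 ± 3.69 CPM (-0.44, edgeR adjusted p = 0.00176). The median change of the 12 was 0.12.

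Genes of mesothelium, the cell layer that covers the spleen capsule, were set beside Igfbp5. Of 6 such genes, 5 had fitted changes below 0 with age (median -0.96) and 5 had changes above 0 with 2DG at 10 weeks (median 0.91). With age 0 of the 6 passed the threshold in edgeR and 2 in DESeq2. An unadjusted edgeR p under 0.05 was found with age for 5 of the 6 and for 3179 of all 18542 genes tested. With 2DG, Upk3b, a uroplakin gene of mesothelium, rose by 1.16 log2 units (edgeR adjusted p = 0.0427), and Gpm6a, a membrane glycoprotein gene, fell by 0.85 (edgeR adjusted p = 0.0195). Upk3b overlapped between the 10-week groups, with 2DG replicate 9 at 4.29 CPM and untreated replicate 5 at 4.38 CPM. In that comparison DESeq2 called 3 of the 6 genes and voom with sample weights 1. Summed, the 6 genes lay at 24.1 to 37.3 CPM at 6 weeks, 20.97 to 30.7 CPM in the untreated 10-week group and 20.4 to 40.0 CPM with 2DG. Msln, the mesothelin gene, averaged 6.72 ± 1.68, 3.31 ± 1.14 and 6.36 ± 2.15 CPM. The part of capsule cells in the change of Igfbp5 was not tested.

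**Figure D5:**
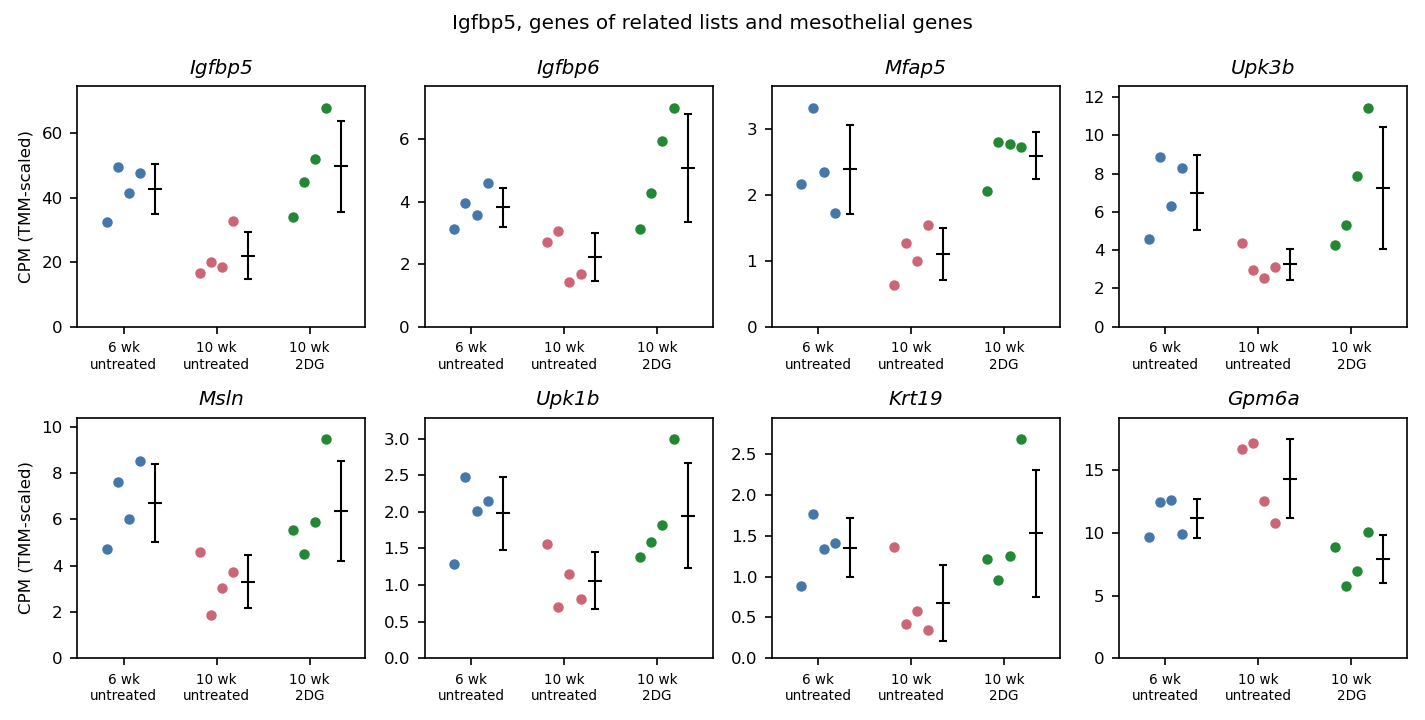
Igfbp5, the listed genes Igfbp6 and Mfap5, and 5 mesothelial genes in each library (CPM, vertical axes from 0), by group; points are libraries and the bar is the mean with SD (n = 4). All but Gpm6a have their lowest group mean in the untreated 10-week group, where Igfbp5 averages 22.0 CPM, and Gpm6a has its highest there.

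Ltb (ENSMUSG00000024399.5, chr17:35194439-35196320), made by lymphocytes rather than stroma, had lower values in the untreated 10-week group than in the other groups without passing. It stood at 147, 174, 170 and 184 CPM at 6 weeks, at 118, 114, 139 and 161 CPM in the untreated 10-week group and at 153, 155, 182 and 169 CPM with 2DG. Replicates 5 to 7 of the untreated 10-week group were below every other library, and replicate 8 was among the 6-week values. The log2 change was -0.34 with age (SE 0.11, edgeR adjusted p = 0.157) and 0.31 with 2DG at 10 weeks (SE 0.11, edgeR adjusted p = 0.102). Without replicate 8 both passed, at -0.45 (edgeR adjusted p = 0.0181) and 0.41 (edgeR adjusted p = 0.0182). Against 6 weeks the 2DG group changed by -0.04 (95% interval -0.27 to 0.20).

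Ltb was also set against the lymphocytes that make it, as its log2(CPM + 1) minus the mean of 10 B cell or 10 T cell markers on the same scale. Relative to B cell markers the difference between groups was 0.0013 with age, 0.084 with 2DG at 10 weeks and 0.085 against 6 weeks. Relative to T cell markers it was -0.26, 0.27 and 0.018. None of these 6 differences passed a two-sided exact permutation test of 4 against 4 libraries (adjusted p from 0.686 to 1). The smallest unadjusted p of this permutation test is 0.0286. After adjustment over the 6 tests, a single complete separation could not pass on its own. The test therefore cannot show that Ltb kept its level relative to these markers. Untreated replicates 6 and 8 had the lowest and highest Ltb of their group. They also had its lowest and highest B cell sums, 2859 and 5493 CPM. Replicates 5 and 7 ran the other way, with Ltb at 118 and 139 CPM and B cell sums of 4402 and 3903 CPM. Replicate 6 had the highest T cell sum of the group, 984 CPM. What B cell and T cell content adds to the spread of Ltb in this group was not tested.

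Downstream of lymphotoxin, 17 genes of its receptors and of non-canonical NF-kB signalling were tested, with a median change of -0.03 with 2DG at 10 weeks. The 1 gene that passed was Birc2, a ubiquitin ligase of that pathway, which fell from 177 ± 12.4 to 146 ± 9.86 CPM (log2 change -0.28, edgeR adjusted p = 0.0229). Ltbr, the receptor for the LTB-containing complex, averaged 16.1 ± 1.13, 20.5 ± 6.04 and 17.9 ± 1.34 CPM and did not pass. Among 10 receptors and partners of the chemokines, 1 passed: Ackr2, a scavenging receptor for inflammatory chemokines, rose from 8.14 ± 3.04 to 15.0 ± 2.12 CPM (0.88, edgeR adjusted p = 0.0195).

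Markers of the stromal cell types were counted beside the 10 genes for the same 2DG comparison at 10 weeks. Over all genes tested, 2.16% passed upward and 5.26% downward in that comparison. Of 23 fibroblastic reticular and perivascular genes 4 rose and 0 fell, with a median of 0.01. They were the muscle filament gene Des (log2 change 0.46, edgeR adjusted p = 0.00438), the microfibril gene Mfap5 (1.21, edgeR adjusted p = 0.0157), the smooth muscle myosin gene Myh11 (0.48, edgeR adjusted p = 0.0398) and the collagen gene Col5a1, named after its values were seen (0.48, edgeR adjusted p = 0.0435). Of 12 follicular dendritic cell genes, the secreted matrix protein gene Coch (0.70, edgeR adjusted p = 0.0235) and Enpp2, which encodes the lipid-producing enzyme autotaxin (0.39, edgeR adjusted p = 0.0361), rose and the adhesion molecule gene Icam1 (-0.27, edgeR adjusted p = 0.0406) fell. Of 20 endothelial genes Vwf, the von Willebrand factor gene that megakaryocytes also express, rose (0.89, edgeR adjusted p = 0.0454). With 1 library left out at a time, Vwf missed the threshold in 9 of 12 fits, with adjusted p of at most 0.136, and passed in those without 6-week replicate 3, untreated replicate 7 or 2DG replicate 12. Without untreated replicate 8 the change was 0.90 (edgeR adjusted p = 0.0621). The call was also lost without a filter on low counts (0.130), in a fit of only the compared groups (0.0903) and with voom (voom adjusted p = 0.116), which called 0 of the 20 endothelial genes.

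With age, and for 2DG against 6 weeks, edgeR called 0 of the 118 tested genes in 9 lists of pathway partners and stromal markers. Of the 118, 22 and 20 had an unadjusted edgeR p under 0.05, against 3179 and 3132 of all 18542 genes tested. DESeq2 called 6 and 4 of the listed genes, and voom with sample weights 0 and 10. Over all genes, too, both tools called more than edgeR in these comparisons, with the counts given in the last section. For 2DG at 10 weeks edgeR called 16 of the 118, against 7.42% of all genes tested, DESeq2 19 and voom 14. Of the 15 listed genes named by rule for 2DG at 10 weeks, Igf2r and Des passed without each of the 12 libraries in turn, and the other 13 lost their call in at least 1 such fit. Without 2DG replicate 11, 12 of the 15 were lost, and without 2DG replicate 10, untreated replicate 5 and 2DG replicate 9 they numbered 10, 8 and 6. Leaving out any other single library lost 1 to 4 of them.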

How the data were processed

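Spleen RNA was poly(A)-selected and made into libraries with a TruSeq v2 kit, a kit that keeps no strand information, per the labels. The authors deposited whole-number counts per gene. The submitters' processing notes name Bowtie2 2.2.0, RSEM 1.2.12 and build GRCm38 without their roles, and the sources used here do not say how the counts became whole numbers. GENCODE M21 (GRCm38) supplied symbols for 53620 of the 53715 identifiers. Counts were tested with edgeR 4.0.16 in R 4.3.3 (TMM scaling, filterByExpr by group, robust quasi-likelihood fits to all 12 libraries), adjusting p by Benjamini-Hochberg over 18542 genes, with a threshold of 0.05. SE is the absolute log2 change over the root of F. The fit was tested on simulated data. CPM use TMM-scaled library sizes. Alternatives were DESeq2 1.42.0, voom with sample weights in limma 3.58.1, other scalings and filters, fits to the compared groups alone, a table without immunoglobulin genes, and each library left out.

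The 10 genes and the 19 gene lists were chosen with earlier results of these data known. Named were the 10 genes, up to 3 genes past the threshold per pathway or stroma list and comparison by smallest adjusted p, and, for Tlx1, Il33 and Cxcl13, the 3 genes of average log2 CPM of at least 2 with the highest Pearson correlation of log2(CPM + 1), other than immunoglobulin or T cell receptor segments and predicted genes. Groups came from the sample titles.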

Additional observations from a re-analysis of the deposited data

Results flagged for a closer look

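In 30 sets of 4 libraries (each of the 10 genes in each group), a library was picked out when its gap to the nearest of the others, divided by the group's range, was above Dixon's 95% critical value. Chance picks out about 1 set in 20, and 2 sets were picked out here. The Ccl19 level of 2DG replicate 12, 0.669 CPM, stood above the next library of its group at 0.390 CPM, on counts of 8 to 15 per library. The Madcam1 level of untreated 10-week replicate 6, 10.4 CPM, stood below the next at 18.8 CPM. No comparison of Madcam1 passed with or without that library.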

How the results depend on the processing

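No paired analysis was possible because the replicate numbers run from 1 to 12 across the groups and no number is shared. With age, 0 of the 9 genes passed in edgeR, 1 in DESeq2, and 0 to 2 when each library was left out. For 2DG at 10 weeks 4 passed, 1 in a fit to the compared groups alone and 1 to 4 with a library left out. Against 6 weeks 1 passed, 0 with median-of-ratios scaling and 0 with the 1 CPM filter, 2 in a fit to the compared groups alone, 2 with voom, and 0 to 1 with a library left out. The cause of these shifts was not tested. Over all genes the counts called were 1 with age (102 without a filter, 682 in DESeq2, 18 with voom, 0 in the compared groups alone, 0 to 1563 with a library left out), 1376 for 2DG at 10 weeks (581 in the compared groups alone, 2304 in DESeq2, 514 to 2209 with a library left out) and 24 against 6 weeks (98 without a filter, 1367 in the compared groups alone, 902 in DESeq2, 1665 with voom, 1 to 354 with a library left out). Signs turned only for changes that passed nowhere. With voom the changes with age became -0.18 for Cxcl13, -0.70 for Ccl21a, 0.0057 for Madcam1 and -0.063 for Man2c1, those for 2DG at 10 weeks 0.13 for Cxcl13, 0.45 for Ccl21a, 0.019 for Slc35c2, 0.030 for Slc50a1 and 0.022 for Man2c1, and that against 6 weeks -0.041 for Cxcl13. Without a filter Slc35c2 changed with age by 0.0072. With a library left out the changes with age ran from -0.16 to 0.24 for Cxcl13, -0.30 to 0.24 for Ccl19, -0.81 to 0.44 for Ccl21a, -0.15 to 0.12 for Madcam1, -0.062 to 0.053 for Slc35c2, -0.098 to 0.043 for Slc50a1 and -0.066 to 0.13 for Man2c1. Those for 2DG at 10 weeks ran from -0.23 to 0.17 for Cxcl13, -0.17 to 0.38 for Ccl19, -0.71 to 0.54 for Ccl21a, -0.10 to 0.018 for Slc35c2, -0.11 to 0.039 for Slc50a1 and -0.16 to 0.043 for Man2c1. Those against 6 weeks ran from -0.064 to 0.14 for Cxcl13, -0.20 to 0.35 for Ccl19, -0.062 to 0.42 for Madcam1, -0.096 to 0.0090 for Ltb, -0.11 to 0.0017 for Slc50a1 and -0.076 to 0.024 for Man2c1. Ltb relative to B cell markers with age ran from -0.11 to 0.084, and relative to T cell markers against 6 weeks from -0.044 to 0.093. The other changes of the 9 tested genes kept their direction under every setting tried. Depth limits Pdpn and Ccl19, with at most 11 and 15 counts per library.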
